A study of Mus musculus with 9 samples.

Results

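This report describes 10 genes of the AP-1 and immediate early response in mouse colonic tissue: the Jun family (Jun, Junb and Jund), the Fos family (Fos, Fosb, Fosl1 and Fosl2), and Atf3, Egr1 and Ier3. They were chosen by symbol, each matched 1 row of the deposited expression table, and they are 10 of its 55401 rows. RNA of wild-type (WT) colonic tissue was sequenced in 9 libraries in 3 groups of 3. The first ate chow diet and the second a high fat diet, both under AOM/DSS, and the third received berberine, a plant alkaloid. AOM/DSS is not spelled out in the labels; in this field the letters commonly mean the carcinogen azoxymethane followed by dextran sulfate sodium, which together give colon tumours on a background of colitis. For the berberine group neither the diet nor any AOM/DSS is stated, and for no group are the strain, age or number of animals. The p-values therefore measure the spread between these libraries, which may in part be technical. The series asks, by its title, about the antitumour action of berberine at the level of gene expression.

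AP-1 is a family of dimeric transcription factors that bind DNA through a basic leucine zipper. Jun proteins can pair with one another or with Fos and ATF proteins, whereas Fos proteins need a Jun partner, so the makeup of the dimers follows from which members a cell makes. Most of these genes are immediate early genes: growth factors, cytokines and stress switch them on within minutes through MAP kinases, without new protein synthesis, and their RNAs are short-lived. In the intestine Jun is known as a target of both JNK and Wnt signalling and as a gene needed for efficient tumour growth in mouse models.

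The bases just upstream of Jun, Ier3 and Fos are shown because Jun and Ier3 were the members that differed between groups in the main test, and Fos, the classic partner of Jun, was not called. Each line gives the 250 bases before the RefSeq gene start (build GRCm38.p6), read 5′ to 3′ on the gene's strand, with matched motifs in capitals. The windows are chr4:95052223-95052472 on the minus strand for Jun, chr17:35821463-35821712 on the plus strand for Ier3 and chr12:85473640-85473889 on the plus strand for Fos.
Jun: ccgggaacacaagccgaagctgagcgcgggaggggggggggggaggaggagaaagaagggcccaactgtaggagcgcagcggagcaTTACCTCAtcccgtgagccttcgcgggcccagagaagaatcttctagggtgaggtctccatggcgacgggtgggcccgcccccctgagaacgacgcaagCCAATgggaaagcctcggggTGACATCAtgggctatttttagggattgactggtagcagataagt
Ier3: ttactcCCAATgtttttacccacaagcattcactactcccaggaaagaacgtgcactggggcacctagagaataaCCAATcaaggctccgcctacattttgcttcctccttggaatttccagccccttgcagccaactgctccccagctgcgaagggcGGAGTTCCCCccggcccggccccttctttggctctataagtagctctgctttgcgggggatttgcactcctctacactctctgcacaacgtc
Fos: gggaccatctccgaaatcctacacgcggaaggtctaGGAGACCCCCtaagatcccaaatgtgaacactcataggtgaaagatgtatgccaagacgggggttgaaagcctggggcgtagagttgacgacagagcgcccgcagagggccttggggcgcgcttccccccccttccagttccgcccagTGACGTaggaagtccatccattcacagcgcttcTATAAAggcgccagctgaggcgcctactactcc

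In the Jun window the capitals mark TTACCTCA from 164 to 157 bases before the start, CCAAT from 65 to 61, and TGACATCA from 45 to 38. The pair of 8-letter motifs are variants of the AP-1 site known from the human JUN promoter, through which Jun-containing dimers act on the gene itself. TGACATCA was found in 2.93% and TTACCTCA in 0.728% of 32851 RefSeq windows of the same length, on either strand, and among the members each was found in Jun. In the Ier3 window the capitals mark CCAAT from 244 to 240 and from 175 to 171, and an NF-kB site from 92 to 83 on the minus strand. In the Fos window they mark an NF-kB site from 214 to 205 on the minus strand, TGACGT (the core of the cyclic AMP response element) from 66 to 61, and TATAAA from 33 to 28. CCAAT was found in 33.8% of all windows, the NF-kB site in 3.9%, TGACGT in 6.47% and TATAAA in 12.4%.

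Of the 10 members, 8 had their window searched. For Fosl1 no window was found, and Egr1 was left out of the search. TGACGT was also found in Atf3, CCAAT in Junb, and the NF-kB site in Fosb and Fosl2. The AP-1 site was searched as TGANTCA, with any base at N (6.75% of all windows). This pattern, the full TGACGTCA (1.55%, which contains TGACGT) and the CArG box bound by serum response factor (1.47%) were found in 0 of the 8. These matches are descriptions of letters in these windows and not measurements of binding. Bases outside the windows were not searched, so a motif missing from a window may still lie elsewhere near the gene. The count of 0 therefore does not show that these genes, or Egr1, lack such sites. The RefSeq start of Ier3 lies 29 bases inside the gene interval of the deposited table, and that of Jun and Fos is the same base in both. For Fosl2, Jund and Atf3 the RefSeq start is 671, 1210 and 34706 bases from the start in the table, so these windows lie away from the start in the table, and the counts over the 8 windows include them.

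Library totals ran from 51961764 to 69007117 estimated counts, and low counts piled up at multiples of 4, so 1 sequenced fragment appears as about 4 counts. The 8 markers of epithelium summed to between 7931 and 11926 CPM, and each was detected in every library. CPM is the count scaled to a common library size, after TMM scaling. The first principal component set the high-fat diet libraries (73.29 to 79.45) apart from all others (-40.8 to -34.15). Of 14506 genes tested, 2199 rose and 2414 fell with high-fat diet against chow, and 2292 were higher and 2168 lower with berberine against high-fat diet. The split depends on the scaling: with library totals alone it was 2818 and 1886, then 1866 and 2686, as the median log2 fold change of all genes moved to 0.13 and -0.115.

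Jun and Ier3 were high in the 3 high-fat diet libraries and low in all 6 others, while the other 7 tested members were not called in any comparison. Against chow, Jun was 2.25-fold and Ier3 6.01-fold higher with high-fat diet, and against high-fat diet Jun was 2.71-fold and Ier3 8.17-fold lower with berberine. A gene is called here when its Benjamini-Hochberg adjusted p by edgeR's quasi-likelihood test is under 0.05 over all 14506 genes tested. In high-fat diet against chow 2 of 9 tested members were called, both higher (22.2%), where 31.8% of all tested genes were called and 15.2% were called higher. With berberine against high-fat diet 2 of 9 were called, both lower, where 30.7% of all tested genes were called and 14.9% were called lower. Counted in either direction the members' share lay below that of all genes, and counted in the called direction it lay above it, on 2 genes. Both comparisons use the same high-fat diet libraries, so the opposite signs are not independent of each other.

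In berberine against chow 0 of 9 members were called by edgeR, where 0.0483% of all tested genes were called, 0.0414% higher and 0.00689% lower. DESeq2 and limma also called 0, and 1 member, Fosl2, had an unadjusted p under 0.05 by edgeR (unadjusted p = 0.0378, adjusted p = 0.422). The median log2 fold change of the tested members was 0.07, -0.25 and -0.03 in the 3 comparisons in that order, beside 0.002, -0.007 and -0.002 for all tested genes. Fosl1 had a mean of 0.457 FPKM (fragments scaled by transcript length and library size), under the mean of 1 FPKM that a gene needed to be tested.

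**Figure D1:**
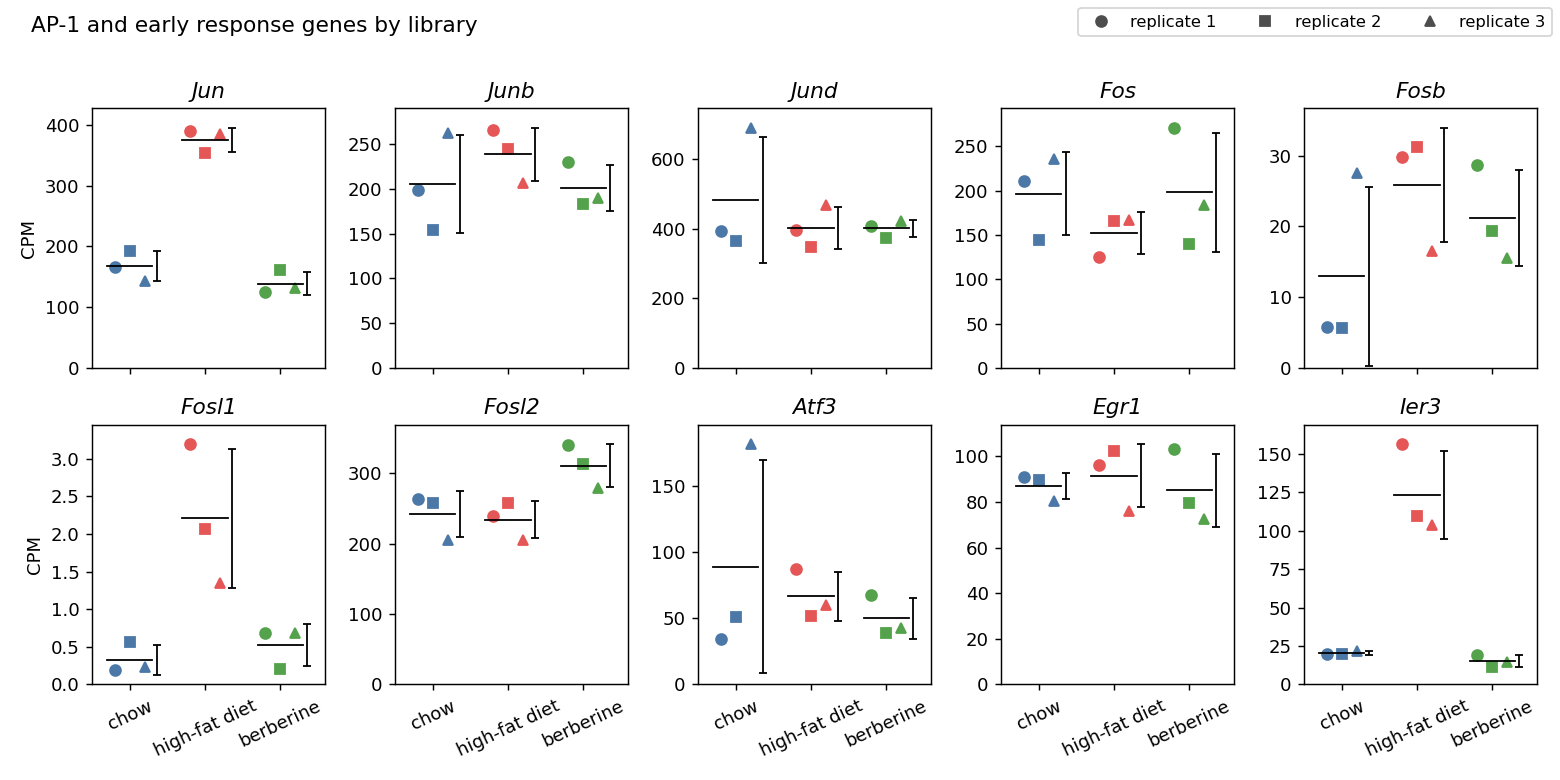
Abundance of the 10 genes in each library in CPM (linear axes from 0, different for each gene), with 1 point per library, a line at the group mean and a bar of 1 SD (n = 3). Jun and Ier3 are high in the 3 high-fat diet libraries, while chow replicate 3 is the highest chow library for 6 of the 10 genes.

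Jun encodes the founding member of AP-1 and its strongest transcriptional activator in the Jun family (ENSMUSG00000052684, GRCm38 chromosome 4, 95049034 to 95052222, minus strand, 1 exon). It stood at 167, 192 and 143 CPM in chow replicates 1 to 3, at 389, 353 and 385 CPM in the high-fat diet replicates and at 124, 160.2 and 131 CPM in the berberine replicates. Every high-fat diet library lay above every other library, and the chow and berberine values overlapped. The means were 167 ± 24.5 CPM in chow, 376 ± 19.8 CPM in high-fat diet and 139 ± 19.0 CPM in berberine (SD, n = 3).

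Jun rose with high-fat diet by 1.17 ± 0.15 (SE) on the log2 scale (2.25-fold, 95% interval 1.78 to 2.84, adjusted p = 0.000855). With berberine it was lower than with high-fat diet by a log2 fold change of -1.44 ± 0.15 (adjusted p = 0.000386). Both calls held in all 19 alternative fits, with log2 fold changes of 1.07 to 1.302 and of -1.55 to -1.36. Between berberine and chow the log2 fold change was -0.27 ± 0.15 (95% interval -0.60 to 0.06, adjusted p = 0.535). Junos, a gene on the opposite strand that overlaps Jun, did not exceed 1.06 FPKM in any library, beside at least 35.1 FPKM for Jun.

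Junb, a Jun family member that often restrains the action of Jun, stood at 199, 154 and 262 CPM in chow, 265, 244 and 207 CPM in high-fat diet and 230.4, 183 and 189.7 CPM in berberine, replicates 1 to 3 in that order. The 3 groups overlapped throughout. Its log2 fold change was 0.22 ± 0.20 for high-fat diet against chow (adjusted p = 0.442), -0.25 for berberine against high-fat diet (adjusted p = 0.377) and -0.03 for berberine against chow (adjusted p = 0.971).

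Jund, the family member that many resting cells express steadily, stood at 394, 364 and 690.3 CPM in chow, 395, 347 and 467 CPM in high-fat diet and 409, 374 and 421 CPM in berberine. Chow replicate 3 was far above the other chow libraries, and the groups overlapped. The log2 fold change of high-fat diet against chow was -0.26 ± 0.24 (95% interval -0.81 to 0.29, adjusted p = 0.449), and without chow replicate 3 it was 0.09 (adjusted p = 0.664). For berberine against high-fat diet and against chow it was -0.01 (adjusted p = 0.986) and -0.27 (adjusted p = 0.733).

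Set side by side per unit of length, Jund was the most abundant of the 10 genes at a mean of 230.2 FPKM over the 9 libraries, followed by Junb at 107 FPKM, Fos at 69.4 FPKM and Jun at 64.8 FPKM. Ier3 had 43.5 FPKM, Atf3 28.5 FPKM, Fosl2 24.3 FPKM, Egr1 17.6 FPKM, Fosb 2.91 FPKM and Fosl1 0.457 FPKM. In the high-fat diet libraries Jun ranked 3 at 110.9 ± 4.98 FPKM and Ier3 ranked 4 at 103 ± 25.2 FPKM. The neighbours Junb (125 ± 18.1 FPKM), Jun and Ier3 do not differ there beyond their spread. In chow the order was Jund, Junb, Fos, Jun, Atf3, Fosl2, Egr1, Ier3, Fosb and Fosl1, with Ier3 at 15.7 ± 1.51 FPKM next to Egr1 at 16.8 ± 1.19 FPKM. Berberine gave the same order as chow except that Fosl2 (28.3 ± 3.54 FPKM) and Atf3 (20.5 ± 6.89 FPKM) were in the opposite order.

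Jun took a larger share of the Jun family RNA in every high-fat diet library than in any other. Jun made up 7.42% to 16.6% of the summed FPKM of Jun, Junb and Jund in chow, 23.4% to 24.4% in high-fat diet and 9.48% to 13.4% in berberine. Jund made up 59.3% to 68.6%, 45.9% to 54.4% and 59.6% to 63.3% in the same order. The high-fat diet shares of Jund lay below those of all other libraries. For both genes the exact permutation test over libraries gave p = 0.1 (two-sided) in each comparison with high-fat diet, the smallest p that 3 against 3 can give. The shares are parts of the same sum, so a rise of Jun by itself lowers the share of Jund. Jund itself was not called, at 252 ± 99.8 FPKM in chow, 227 ± 28.2 FPKM in high-fat diet and 212 ± 11.7 FPKM in berberine. The shares reuse the values by which Jun was called and are not a separate result.

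**Figure D2:**
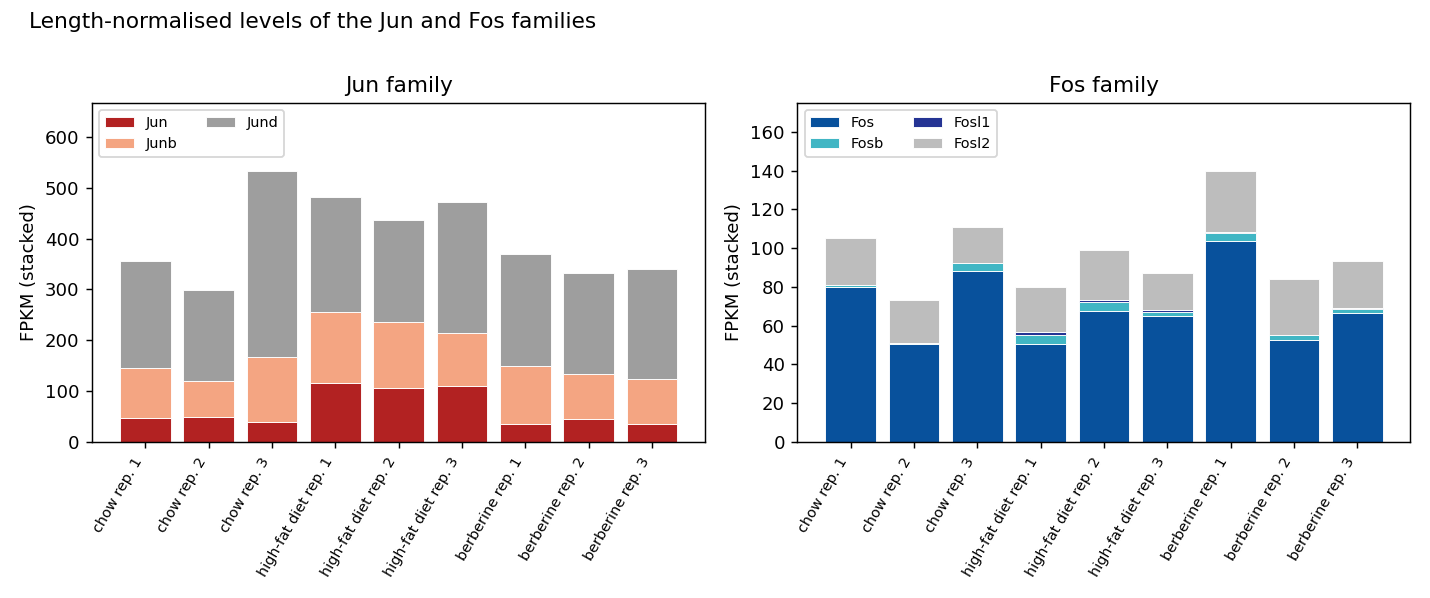
FPKM of each Jun family gene (left) and Fos family gene (right) stacked by library, on linear axes from 0, with libraries grouped as chow, high-fat diet and berberine. The Jun portion takes 23.4% to 24.4% of the Jun family in high-fat diet libraries and at most 16.6% elsewhere, while Fos is the largest portion of the Fos family in every library.

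Fos encodes the classic partner of Jun, induced within minutes of a stimulus (ENSMUSG00000021250, chromosome 12, 85473890 to 85477273, plus strand, 4 exons). It stood at 210.4, 144 and 235 CPM in chow, at 125, 165 and 167 CPM in high-fat diet and at 271, 139.7 and 183 CPM in berberine. The groups overlapped, with the highest single value in berberine replicate 1. The log2 fold change was -0.37 ± 0.27 for high-fat diet against chow (95% interval -0.98 to 0.24, adjusted p = 0.332), 0.38 for berberine against high-fat diet (adjusted p = 0.314) and 0.01 for berberine against chow (adjusted p = 0.994). The interval for high-fat diet against chow does not reach the size of the difference measured for Jun.

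Fosb, a Fos paralogue that also gives a truncated form by splicing, stood at 5.80, 5.57 and 27.6 CPM in chow, 29.8, 31.2 and 16.6 CPM in high-fat diet and 28.7, 19.3 and 15.5 CPM in berberine. Chow replicates 1 and 2 were the lowest of the 9 libraries, and chow replicate 3 lay among the high-fat diet values. The log2 fold change of high-fat diet against chow was 0.99 ± 0.61 (95% interval -0.40 to 2.39, adjusted p = 0.252). Without chow replicate 3 it was 2.20 with adjusted p = 0.00546, so 1 library decides whether Fosb is called. For berberine it was -0.29 against high-fat diet (adjusted p = 0.743) and 0.70 against chow (adjusted p = 0.718).

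Fosl1 encodes Fra-1, a Fos protein without the transactivation domains of Fos that is itself a target of AP-1. It was the rarest member, with estimated counts of 12, 30 and 16 in chow, 233, 122 and 85 in high-fat diet and 36, 14 and 42 in berberine, or 0.194, 0.559 and 0.233, 3.19, 2.07 and 1.35 and 0.690, 0.206 and 0.684 CPM. Every high-fat diet library was above every other library. At about 4 counts to a fragment, the values outside high-fat diet rest on few fragments.

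Fosl1 was measured in a fit of all 34440 genes with any count. There its log2 fold change was 2.79 ± 0.66 for high-fat diet against chow (adjusted p = 0.02), -2.07 ± 0.64 for berberine against high-fat diet (adjusted p = 0.0641) and 0.72 for berberine against chow (adjusted p = 0.728). Leaving out 1 library at a time, the first of these ran from 2.42 to 3.40, and the call was lost without chow replicate 1 (adjusted p = 0.0685), chow replicate 3 (adjusted p = 0.0626) or high-fat diet replicate 1 (adjusted p = 0.0726). For berberine against high-fat diet Fosl1 was called on the genes kept by filterByExpr (log2 fold change -2.10, adjusted p = 0.0447). In the fit of all genes with 1 library left out it ran from -2.35 to -1.69 and passed the threshold without chow replicate 2 (adjusted p = 0.0442). Ccdc85b overlaps Fosl1 on the opposite strand and was at 9.09 to 16.2 FPKM in high-fat diet, 4.2 to 8.01 FPKM in chow and 4.53 to 5.05 FPKM in berberine. The sources used here do not say whether counting used strand, so reads of the 2 genes may not be told apart.

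Fosl2 encodes Fra-2, a more slowly induced Fos protein, and stood at 264, 258 and 205 CPM in chow, 239.9, 258 and 205 CPM in high-fat diet and 340.1, 313 and 279 CPM in berberine. Every berberine library was above every chow and high-fat diet library, and the latter groups overlapped. Its log2 fold change was 0.41 ± 0.15 for berberine against high-fat diet (95% interval 0.08 to 0.74, adjusted p = 0.0642) and 0.36 ± 0.15 for berberine against chow (95% interval 0.03 to 0.69, adjusted p = 0.422). It was -0.05 for high-fat diet against chow (adjusted p = 0.824). The first of these passed the threshold in 3 of 19 alternatives, with DESeq2 (adjusted p = 0.0381), without chow replicate 3 (adjusted p = 0.0452) and with a replicate block (adjusted p = 0.0264).

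Within the Fos family, Fos held 62.6% to 79.5% of the summed FPKM over all 9 libraries and Fosl2 16.9% to 34.1%, while Fosl1 did not exceed 1.86%. No share of Fos or Fosl2 separated the groups (exact permutation test, two-sided, p = 0.2 to 1). The share of Fosl1 was 0.686% to 1.86% in high-fat diet and 0.0711% to 0.297% in chow, with an exact permutation p = 0.1, the smallest possible. This share reuses the Fosl1 values given above and is not a separate result.

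Atf3, a stress-induced bZIP protein that pairs with Jun and often represses, stood at 34.2, 51.2 and 182 CPM in chow, 87.5, 52.1 and 59.9 CPM in high-fat diet and 67.9, 39.2 and 42.4 CPM in berberine. Chow replicate 3 was the highest of all libraries, far above the next. The other chow libraries lay below every high-fat diet library, narrowly so at 51.2 beside 52.1 CPM, and the berberine values overlapped both groups. The log2 fold change of high-fat diet against chow was -0.42 ± 0.56 (95% interval -1.70 to 0.86, adjusted p = 0.607), and without chow replicate 3 it turned to 0.65 (adjusted p = 0.178). For berberine it was -0.42 against high-fat diet (adjusted p = 0.606) and -0.84 against chow (adjusted p = 0.625).

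Egr1, a zinc finger transcription factor outside AP-1 that the same kinase pathways induce, stood at 91.0, 89.4 and 80.6 CPM in chow, 96.2, 102 and 76.0 CPM in high-fat diet and 103, 79.6 and 72.6 CPM in berberine. It was the member with the narrowest range, its highest library being 1.42 times its lowest, and the groups overlapped. The log2 fold change was 0.07 for high-fat diet against chow (95% interval -0.30 to 0.45, adjusted p = 0.77), -0.10 for berberine against high-fat diet (adjusted p = 0.659) and -0.03 for berberine against chow (adjusted p = 0.961).

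Ier3, an early response gene that protects cells from death and is induced by NF-kB and growth factors (ENSMUSG00000003541, chromosome 17, 35821684 to 35822923, plus strand, 2 exons), had the largest log2 fold change of the tested members in both comparisons with high-fat diet. It stood at 20.1, 19.5 and 22.0 CPM in chow replicates 1 to 3, at 156, 109.9 and 104 CPM in the high-fat diet replicates and at 19.1, 11.3 and 14.9 CPM in the berberine replicates. The lowest high-fat diet library was several times the highest of any other library, and all berberine values lay below all chow values. The means were 20.5 ± 1.28 CPM in chow, 123 ± 28.7 CPM in high-fat diet and 15.1 ± 3.93 CPM in berberine (SD, n = 3).

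With high-fat diet Ier3 rose by 2.59 ± 0.23 on the log2 scale (6.01-fold, 95% interval 4.18 to 8.66, adjusted p = 0.000242). With berberine it was lower than with high-fat diet by a log2 fold change of -3.03 ± 0.24 (8.17-fold, adjusted p = 0.000122). Both calls held in all 19 alternatives, with log2 fold changes of 2.38 to 2.72 and of -3.24 to -2.81. Against chow the berberine value was -0.44 ± 0.22 (95% interval -0.94 to 0.06, adjusted p = 0.501).

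**Figure D3:**
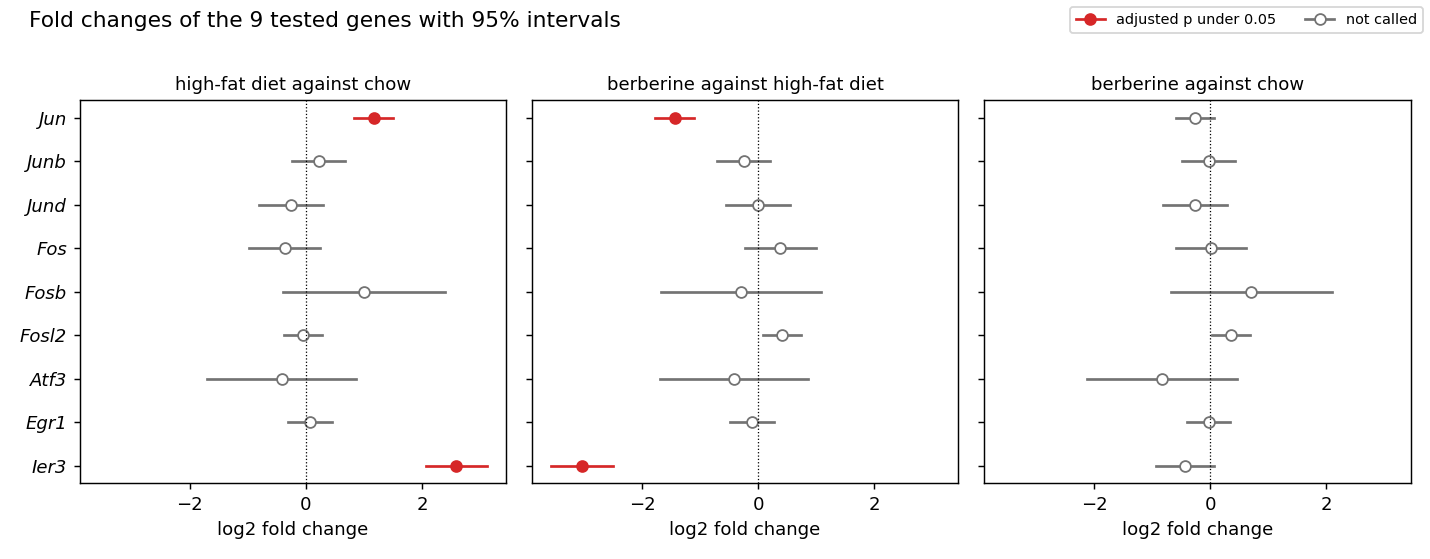
Log2 fold changes of the 9 tested genes in each comparison, with points at the estimate, lines for the 95% interval and filled red points where the adjusted p was under 0.05. Jun and Ier3 are filled on opposite sides of 0 in the first and second panels, which share the high-fat diet libraries, and no gene is filled in the third.

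Groups that do not overlap were counted as a second description. In high-fat diet against chow they were Jun and Ier3 (2 of 9 tested members, both higher), where 45.7% of all tested genes did not overlap, with 23.2% of all tested genes higher and 22.6% lower. With berberine set against high-fat diet, Fosl2 was higher and Jun and Ier3 lower, where 50.4% of all tested genes did not overlap, 24.8% higher and 25.6% lower. In berberine against chow Fosl2 was higher and Ier3 lower, where 18.1% did not overlap, 8.73% higher and 9.37% lower. In both comparisons with high-fat diet the members' shares lay below those of all genes. In berberine against chow, with 1 of 9 members in each direction, they lay slightly above but near those of all genes.

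Some libraries were the highest of their group for several members, and how often this holds over all genes was not counted. Chow replicate 3 was the highest chow library for 6 of the 10 members: Junb, Jund, Fos, Fosb, Atf3 and Ier3. For Ier3 the lead was narrow (22.0 beside 20.1 and 19.5 CPM). Chow replicate 3 was also the lowest chow library for Jun, Fosl2 and Egr1. In that library the 5 striated muscle markers summed to 1343 CPM, against 35.2 and 50.6 CPM in the other chow libraries and at most 21.0 CPM elsewhere. Berberine replicate 1 was the highest berberine library for 8 of the 10 members, all but Jun and Jund. The 5 adipocyte markers summed to 588, 522 and 23.8 CPM in berberine replicates 1 to 3 and to at most 99.5 CPM elsewhere. The part of tissue composition or handling in these differences was not tested.

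Marker genes of other cell types also moved with the groups that differ in Jun and Ier3. The 6 mast cell markers summed to 59.7 to 133 CPM in chow, to 4224, 1004 and 297 CPM in high-fat diet replicates 1 to 3 and to 63.6 to 81.5 CPM in berberine, with Fcer1a at 0 in the 3 chow libraries and in berberine replicates 1 and 3, and Tpsb2 at 0 in berberine replicate 1. Of these markers 5 rose and 1, Kit, fell in high-fat diet against chow. The 5 absorptive colonocyte markers summed to 3328 to 7812 CPM in chow, 277 to 532 CPM in high-fat diet and 2160 to 3256 CPM in berberine, and 5 of 5 fell with high-fat diet. Sums for T cells, B cells, general leukocytes, goblet cells, and enteric neurons and glia were likewise lower in every high-fat diet library than elsewhere. This did not hold for neutrophils and macrophages, whose sums overlapped between groups (75.9 to 155 and 214 to 283 CPM in high-fat diet). With high-fat diet 3 of 4 tested neutrophil markers and 1 of 5 macrophage markers rose, and 0 of either fell. In berberine 2 of the 4 neutrophil markers were lower than in high-fat diet. Smooth muscle markers summed to 8477 to 11900 CPM in chow, 1402.5 to 6823 CPM in high-fat diet and 4229 to 4931 CPM in berberine. Chow lay above berberine, with 0 of 6 markers called between them. Adipocyte sums were 11.4 to 23.7 CPM in high-fat diet, just below 23.8 CPM in berberine replicate 3. Squamous markers summed to 307, 1.77 and 5.05 CPM in chow replicates 1 to 3. In high-fat diet that sum was 41.8 to 134 CPM and in berberine 5.31 to 18.3 CPM. T cell markers summed to 33.9 to 75.3 CPM in chow, 13.7 to 18.3 CPM in high-fat diet and 64.0 to 77.9 CPM in berberine, and B cell markers to 246 to 384, 90.9 to 186 and 385 to 711 CPM. In both lists 4 of 4 tested genes fell with high-fat diet and 4 of 4 were higher in berberine than in high-fat diet. General leukocyte markers summed to 277 to 482, 152 to 224 and 407 to 767 CPM, goblet cell markers to 5820.5 to 26457, 766 to 5589 and 10068 to 18916 CPM, and neuron and glia markers to 51.5 to 71.3, 8.85 to 33.8 and 37.8 to 49.5 CPM, in the same order of groups. Of these, 1 of 4, 2 of 5 and 2 of 3 tested genes fell with high-fat diet, and S100b was at 0 in high-fat diet replicate 1. Of all tested genes 15.2% rose and 16.6% fell with high-fat diet, so 1 called marker of a short list is near that share. With berberine against high-fat diet 15.8% of all tested genes were higher and 14.9% lower. High-fat diet replicate 1 had the highest mast cell sum. Of the 9 libraries it was also the highest for Jun, Junb, Fosl1 and Ier3, and the lowest for Fos.

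Without that library the log2 fold changes of high-fat diet against chow were 2.38 for Ier3 (adjusted p = 0.000781) and 1.14 for Jun (adjusted p = 0.0039). The part of these cell types in the levels of Jun and Ier3 was not tested. In bulk tissue, fewer cells of a type and less RNA per cell cannot be told apart.

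Genes that act with, upstream or downstream of AP-1 were read from 6 lists. The lists were chosen with earlier results of these data known, so their counts and medians are descriptions and not independent tests. Among the targets of AP-1, 9 of 16 tested genes rose with high-fat diet, where 31.8% of all tested genes were called and 15.2% rose, with a median log2 fold change of 1.73. Ccnd1, the cell cycle gene cyclin D1 that Jun is known to activate, went from 86.4 ± 5.46 CPM in chow to 265.5 ± 48.0 CPM in high-fat diet and 66.5 ± 14.8 CPM in berberine. Its log2 fold change was 1.62 ± 0.19 (adjusted p = 0.000604) for high-fat diet against chow and -1.997 ± 0.19 (adjusted p = 0.000287) for berberine against high-fat diet. Of the same 16 genes, 10 were lower in berberine than in high-fat diet and 1, Cdkn1a, was higher, where 14.9% of all tested genes were lower and 15.8% higher, with a median of -1.48.

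The largest of the named targets were very uneven among the high-fat diet libraries. Mmp10, a matrix protease, was at 310.0, 94.3 and 12.5 CPM in high-fat diet replicates 1 to 3 and at 0.73 to 2.39 CPM in all other libraries. Spp1, the secreted protein osteopontin, was at 124, 40.7 and 29.3 CPM in high-fat diet and at 2.34 to 7.05 CPM elsewhere. Mmp9, another matrix protease, was at 59.0, 17.0 and 12.5 CPM against 2.55 to 5.93 CPM elsewhere. Every high-fat diet library was above all others for each of them, with replicate 1 highest.

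The log2 fold changes of high-fat diet against chow were 6.45 ± 1.10 for Mmp10, 4.03 ± 0.68 for Spp1 and 3.30 ± 0.58 for Mmp9 (adjusted p = 0.0033, 0.00324 and 0.00369). Without high-fat diet replicate 1 they were 5.06, 3.15 and 2.30 and remained called, and without chow replicate 2 that of Spp1 was 4.75. For berberine against high-fat diet they were -6.06 for Mmp10 and -4.17 for Spp1, with -2.17 for Timp1, an inhibitor of matrix proteases. Without high-fat diet replicate 1 these were -4.66, -3.27 and -1.53, all still called. Leaving out berberine replicate 2 or berberine replicate 3 left 5 of the 16 targets lower, and leaving out high-fat diet replicate 1 or high-fat diet replicate 2 left 6.

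**Figure D4:**
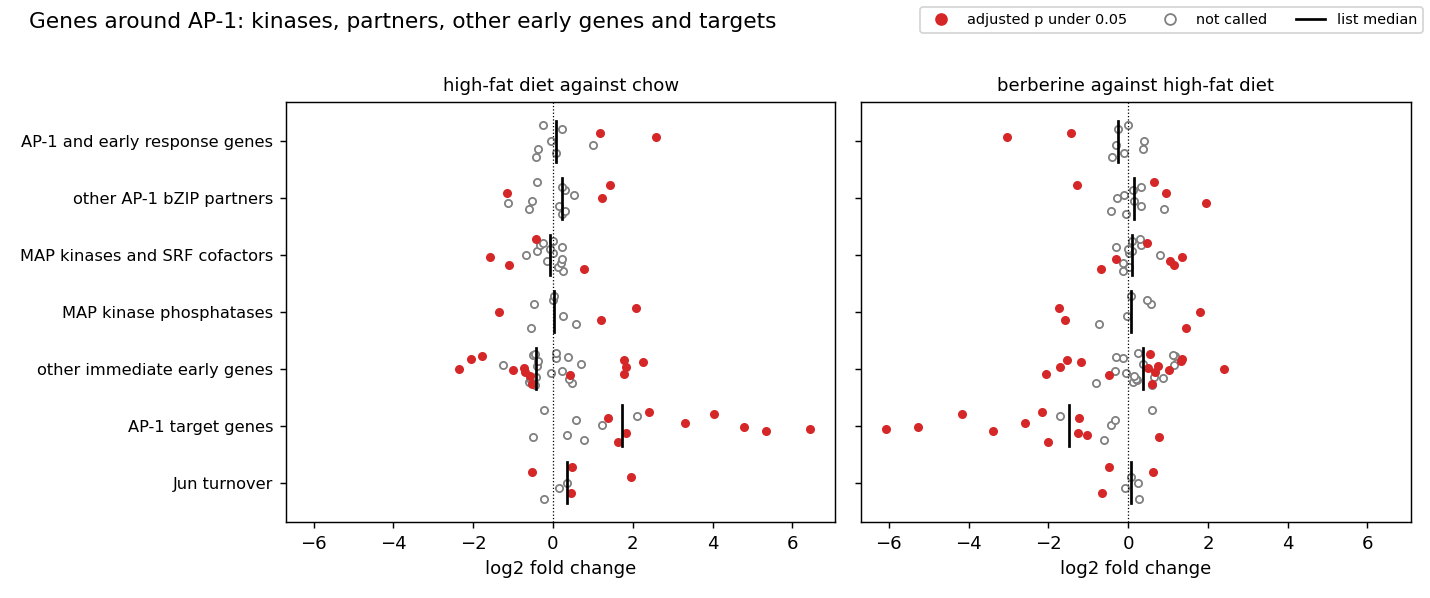
Log2 fold changes of the tested genes of each list (1 point per gene, a bar at the list median), for high-fat diet against chow (left) and berberine against high-fat diet (right), with filled red points where the adjusted p was under 0.05. The AP-1 target genes have the median farthest from 0, at 1.73 and -1.48, while the other lists have medians between -0.42 and 0.36. The lists were chosen with earlier results of these data known.

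Other immediate early genes did not move as 1 group. With high-fat diet 5 of 31 rose and 8 fell, where 15.2% of all tested genes rose and 16.6% fell, with a median log2 fold change of -0.42. The balance turned with the scaling: 6 rose and 4 fell with library totals alone, and 6 rose and 6 fell with limma. Klf4, a factor of differentiated epithelium, fell from 689 ± 23.8 to 135 ± 25.9 CPM and was at 716 ± 83.6 CPM in berberine. Myc, a growth regulator and Wnt target, rose from 27.8 ± 7.23 to 99.2 ± 11.3 CPM and was at 30.5 ± 9.26 CPM in berberine. Plk2 and Gadd45g, a stress kinase and a stress adaptor, each rose by 1.79 on the log2 scale (adjusted p = 0.00208 and 0.00209).

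Of the same 31 genes, 9 were higher and 5 lower in berberine than in high-fat diet, where 15.8% of all tested genes were higher and 14.9% lower. With library totals alone 3 were higher and 5 lower, and with limma 4 and 5. Klf4 was higher by 2.40 on the log2 scale, and the log2 fold changes of Gadd45g, Myc and Plk2 were -2.05, -1.70 and -1.53. The number called higher ran from 3 to 11 over the alternatives, and it was 3 to 6 when any 1 high-fat diet or berberine library was left out. The number called lower was then 3 or 4. The count of those that fell with high-fat diet was 5 without high-fat diet replicate 2.

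The other bZIP genes that can enter AP-1 dimers gave 2 that rose and 1 that fell of 13 tested with high-fat diet, where 31.8% of all tested genes were called. Mafg, a small Maf protein without an activation domain, rose from 90.5 ± 9.59 to 243 ± 28.7 CPM (log2 fold change 1.43 ± 0.13, adjusted p = 0.000256) and was at 101 ± 6.42 CPM in berberine (-1.27 against high-fat diet). Maf fell by 1.16 on the log2 scale. Crem rose by 1.22, and its call was lost without chow replicate 1, chow replicate 2 or high-fat diet replicate 1 (adjusted p = 0.0501, 0.0612 and 0.0599). Mafk, Maf and Batf2 were higher in berberine than in high-fat diet, by 0.66, 0.96 and 1.95, and Mafg was the 1 lower. The call of Batf2 was lost in 15 of 19 alternatives, among them those without any 1 library but berberine replicate 3, and its log2 fold change was 1.005 without berberine replicate 1 (adjusted p = 0.179).

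Of the MAP kinases and serum response factor cofactors, 1 of 17 rose and 3 fell with high-fat diet, where 31.8% of all tested genes were called. Here too the balance turned: 4 rose and 2 fell with library totals alone, and 3 rose and 2 fell with limma. Map2k1, the kinase that activates ERK, fell from 234 ± 24.9 to 109 ± 12.2 CPM and was at 240.3 ± 27.0 CPM in berberine. Map2k6, which activates p38, fell by 1.58 on the log2 scale. Elk3 rose by 0.77, a call lost without chow replicate 2 or high-fat diet replicate 1 (adjusted p = 0.0536 and 0.0523), and Srf fell by 0.42, a call lost in 11 of 19 alternatives, also without chow replicate 1, chow replicate 2 or any 1 high-fat diet library. Against high-fat diet, 4 were higher and 2 lower with berberine (3 and 3 with library totals alone), where 30.7% of all tested genes were called. Map2k1, Map2k6 and Map2k3 were higher by 1.15, 1.34 and 1.06, and Mrtfa by 0.47, a call lost in 9 of 19, also without any 1 high-fat diet library, berberine replicate 1 or berberine replicate 2. The count of 2 lower was 0 or 1 with any 1 high-fat diet or berberine library, chow replicate 1 or chow replicate 2 left out.

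The phosphatases that switch MAP kinases off gave 2 higher and 1 lower of 9 with high-fat diet, where 31.8% of all tested genes were called. Dusp4 went from 9.17 ± 3.12 to 38.5 ± 13.4 CPM and was at 11.6 ± 3.99 CPM in berberine, and Dusp14 rose by 1.21 on the log2 scale. Dusp2 fell by 1.35, a call lost in 13 of 19 alternatives, also without chow replicate 1, chow replicate 3, berberine replicate 2 or any 1 high-fat diet library. Dusp1, itself an immediate early gene, was at 62.1 ± 10.96 CPM in chow, 42.3 ± 5.72 CPM in high-fat diet (adjusted p = 0.0712) and 116 ± 27.9 CPM in berberine. It was higher in berberine than in high-fat diet by 1.46 ± 0.21 (adjusted p = 0.00161), with Dusp2 higher and Dusp14 and Dusp4 lower.

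Genes of Jun turnover and phosphorylation formed the last list. Gsk3b, the kinase that marks Jun for degradation, was at 22.2 ± 2.93 CPM in chow, 86.0 ± 10.5 CPM in high-fat diet and 89.9 ± 2.92 CPM in berberine. It rose by 1.95 ± 0.14 with high-fat diet (adjusted p = 0.000114) and was higher in berberine than in chow by 2.02 ± 0.14 (adjusted p = 0.00369). It was the 1 gene of the 6 lists that edgeR called in berberine against chow, where 0.0483% of all tested genes were called. DESeq2, which called 378 genes there, also called 1 MAP kinase phosphatase and 1 gene of the MAP kinase list.

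Cops5, a coactivator of Jun, rose by 0.44 on the log2 scale with high-fat diet, and Itch, a ubiquitin ligase for Jun, fell by 0.53. For berberine against high-fat diet their log2 fold changes were -0.65 and 0.63 in the same order, both called. With high-fat diet the call of Itch was lost in 6 of 19 alternatives, also without chow replicate 1 (adjusted p = 0.051) or high-fat diet replicate 3 (adjusted p = 0.0502). That of Cops5 was lost in 4, when chow replicate 2 or any 1 high-fat diet library was left out.

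The tested genes closest to Jun in pattern over the 9 libraries were Ezh2, Mpzl1, Chac2, Map9 and Hoxa9, leaving out predicted gene models. Their root mean square difference from Jun, in log2(CPM + 1) centred on each gene's mean, was 0.14 to 0.177, against a median of 0.703 over all tested genes. Neighbours were picked by this difference, so they lie below the median by construction. Ezh2, a histone methyltransferase, was at 31.9 CPM in chow, 73.1 CPM in high-fat diet and 30.5 CPM in berberine. The closest to Ier3 were Gstm7, Fam89a, Sorcs2, Gpc1 and Ecscr, at 0.22 to 0.245 against a median of 1.35. Gpc1, a cell surface proteoglycan, was at 27.3 CPM in chow, 189 CPM in high-fat diet and 24.4 CPM in berberine.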

How the data were processed

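Poly(A) RNA of 9 colonic tissue libraries was prepared with strand marking and molecular identifiers, per the labels' protocols. The submitters' processing notes name the build GRCm38, the trimmer cutadapt 1.9, the aligner HISAT2 2.0.4, StringTie 1.3.4d, UMI-tools, edgeR and DESeq2, without settings. Each gene has, per the file headers, estimated counts and FPKM for every library. The deposited estimated counts are whole numbers, not normalised between libraries, and the deposited FPKM values are 0.0001 where the count is 0. Genes whose mean reached 1 FPKM (14506, with 98.9% of counts) were tested with edgeR 4.0.16 (TMM, quasi-likelihood, all 9 libraries, 3 group pairs, Benjamini-Hochberg) in R 4.3.3. SE is the log2 fold change divided by the square root of F, and 95% intervals use the fit's degrees of freedom.

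The 19 alternatives were DESeq2 1.42.0, other scalings and filters, counts divided by 4, the compared groups alone, limma 3.58.1 on log2(FPKM + 1) or log2(FPKM + 0.1), a replicate block, and each library left out. The members and lists were chosen with earlier results of these data known. Named were all members, the 4 genes of each list with the smallest p per comparison, and the 5 genes nearest to each called member; in berberine against chow a list gene is named only where called, and Cdkn1a was named after its value was seen. A gene that the rule names is not reported here, and its list is given without counts. No 2 libraries held identical values. Upstream windows were matched by symbol to RefSeq (8 of 10 members used, without Fosl1 and Egr1).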

Additional observations from a re-analysis of the deposited data

How the results depend on the processing

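Jun and Ier3 kept their direction and call in both comparisons with high-fat diet in all 19 alternatives, while 0 of 9 tested members were called in berberine against chow in any. The number of members called was 2 or 3 in the other comparisons, the third being Fosl1, Fosb or Fosl2. Genes called in berberine against high-fat diet (4460) numbered 2960 to 4740 when 1 library was left out, the lowest without berberine replicate 2. Genes called in berberine against chow (7) numbered 378 with DESeq2 (177 higher and 201 lower), 2 with RLE scaling, with filterByExpr, with counts divided by 4 or with the 2 groups alone, and 1 to 7 when 1 library was left out. The cause was not tested.

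Reversals concerned members that were not called. Fosl2, high-fat diet against chow, had log2 fold changes of 0.082 with library totals alone, 0.072 with limma on log2(FPKM + 1) and 0.075 with limma on log2(FPKM + 0.1). For Atf3 in high-fat diet against chow limma gave 0.037 and 0.048. In berberine against chow, Junb was at 0.01 with every gene and at 0.022 and 0.022 with limma, Egr1 at 0.008 with every gene, and Fos at -0.0034 with the 2 groups alone. With 1 library left out, high-fat diet against chow ran from -0.43 to 0.093 for Jund, -0.15 to 0.048 for Fosl2, -0.81 to 0.65 for Atf3 and -0.013 to 0.20 for Egr1. Berberine against high-fat diet ran from -0.094 to 0.10 for Jund. Berberine against chow ran from -0.20 to 0.19 for Junb, -0.44 to 0.086 for Jund, -0.28 to 0.21 for Fos, -1.23 to 0.23 for Atf3 and -0.19 to 0.066 for Egr1.

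The replicate numbers were not found to pair the samples: the correlations of same-numbered libraries' deviations ran from -0.099 to 0.16, with 2 of 9 pairs over 0.1. With the replicate block, 4344, 4286 and 2 genes were called in the 3 comparisons, Jund in berberine against high-fat diet was at 0.0096, and Fosl2 was called there (adjusted p = 0.0264). The alternatives for Fosl1 with 1 library left out and for the 6 lists were chosen after seeing the data. Of the 46 results of list genes chosen by the naming rule, 38 were called in every alternative. With limma on log2(FPKM + 1), 2956 genes rose and 1897 fell with high-fat diet, and 1862 were higher and 2703 lower with berberine against high-fat diet. Of the members, Fosl1 rests on the fewest counts, from 12 to 233 per library.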
